A study of Homo sapiens with 6 samples.

Results

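The genes described here are 40 genes of mitosis and the spindle checkpoint, measured by RNA sequencing in T98G cells with and without the chromatin protein CBX8. They were chosen by symbol and by their known role in cell division. The rule used no measured value, but the genes were picked with earlier results of these data known. All 40 were found among the 57133 gene symbols of the deposited count table. T98G is an established human glioblastoma line. CBX8 is a chromobox subunit of Polycomb repressive complex 1, which binds methylated histone H3 and is known for keeping genes silent.

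The 6 libraries fell into 2 groups of 3. In the CBX8 KO group, CBX8 had been disrupted with CRISPR-Cas9 and the cells carried the empty doxycycline-inducible TetO-FUW vector. In the WT CBX8 re-expression group, the same knockout line carried that vector with V5-tagged wild-type CBX8. The genotype label of these 3 libraries reads wild type, whereas the titles and the study's methods describe re-expression in knockout cells, and the latter wording is used. Both groups were given doxycycline at 1 µg/ml for 72 h and both carried the rtTA transactivator, so neither holds an untreated or parental T98G library. Each vector had its own stably selected line, so the vector and the line that carries it cannot be told apart, and nothing states whether the 3 replicates of a group were separate cultures. The p-values measure only the spread between these libraries. The question of the comparison was which genes differ when CBX8 is restored, and fold changes are re-expression minus CBX8 KO throughout.

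Entry into mitosis is driven by CDK1 bound to cyclins A and B. The spindle then attaches to chromosomes at kinetochores, and the spindle checkpoint holds the anaphase-promoting complex (APC/C) in check until every kinetochore is attached. Most of these genes are transcribed late in the cell cycle, when FOXM1 and the MYBL2-MuvB complex take over from the repressive DREAM complex at a promoter element called the cell cycle genes homology region (CHR). Another common element of these promoters is the CCAAT box, bound by NF-Y. Mitotic mRNAs are often read as a measure of how many cells in a culture are dividing, but in bulk RNA fewer dividing cells and less RNA per dividing cell cannot be told apart.

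The promoter table (RefSeq, GRCh38.p14, 250 bases before to 50 bases after the gene start) held 33 of the 40 genes. FOXM1, AURKA, BIRC5, BUB3, UBE2C, TTK and TPX2 were not in it. The CHR was searched as the letters TTTGAA or TTCGAA on either strand, and the CCAAT box as CCAAT on either strand. A CHR match was present in 26 of the 33 promoters (78.8%), against 16.4% of all 27305 promoters of that length and 10.6% of those of the genes tested for expression. A CCAAT match was present in 27 (81.8%), against 35.7% of all promoters, and both were present in 66.7% against 6.49%. The matches also lay close to the gene start. Of 35 CHR matches, 25 began between 60 bases before and 20 bases after it. Of the 33 member promoters, 60.6% had such a match, against 4.31% of all promoters. A match is a run of letters, not a shown binding site.

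The promoters of 5 members are printed because they show the shared element in genes with different roles: the member that differed between groups (ANLN), the kinase at the centre of the program (CDK1), a chromosomal passenger subunit (CDCA8), a spindle protein (HMMR) and the proliferation marker MKI67. Only bases before the gene start are shown, 5′ to 3′ on the gene's strand, with CHR letters in capitals. The start is RefSeq's, whereas gene positions given further on are those of GENCODE, whose outermost transcript may begin elsewhere.
ANLN, chr7:36389612-36389861, plus strand: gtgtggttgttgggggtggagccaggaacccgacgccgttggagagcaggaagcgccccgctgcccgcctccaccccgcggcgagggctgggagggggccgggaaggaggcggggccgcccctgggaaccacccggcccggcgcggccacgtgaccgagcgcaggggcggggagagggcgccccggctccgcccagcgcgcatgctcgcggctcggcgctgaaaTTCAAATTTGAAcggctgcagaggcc
CDK1, chr10:60778378-60778477, plus strand: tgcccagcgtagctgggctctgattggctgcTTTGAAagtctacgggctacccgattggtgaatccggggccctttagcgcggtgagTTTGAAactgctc
CDCA8, chr1:37692416-37692515, plus strand: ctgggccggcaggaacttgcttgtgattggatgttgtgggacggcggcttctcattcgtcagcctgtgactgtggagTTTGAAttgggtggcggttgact
HMMR, chr5:163460532-163460631, plus strand: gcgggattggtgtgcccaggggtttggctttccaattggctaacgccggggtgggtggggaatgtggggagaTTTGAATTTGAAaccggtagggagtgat
MKI67, chr10:128126424-128126523, minus strand: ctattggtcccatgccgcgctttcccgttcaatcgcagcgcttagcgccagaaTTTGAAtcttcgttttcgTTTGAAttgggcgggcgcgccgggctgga

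In ANLN the adjoining matches began 26 and 20 bases before the start and formed the run TTCAAATTTGAA, which reads the same on both strands. HMMR had adjoining matches at 28 and 22 bases, in the same orientation. CDK1 had matches at 69 and 13 bases, MKI67 at 47 and 29 bases, and CDCA8 a single match at 23 bases before the start.

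**Figure D1:**
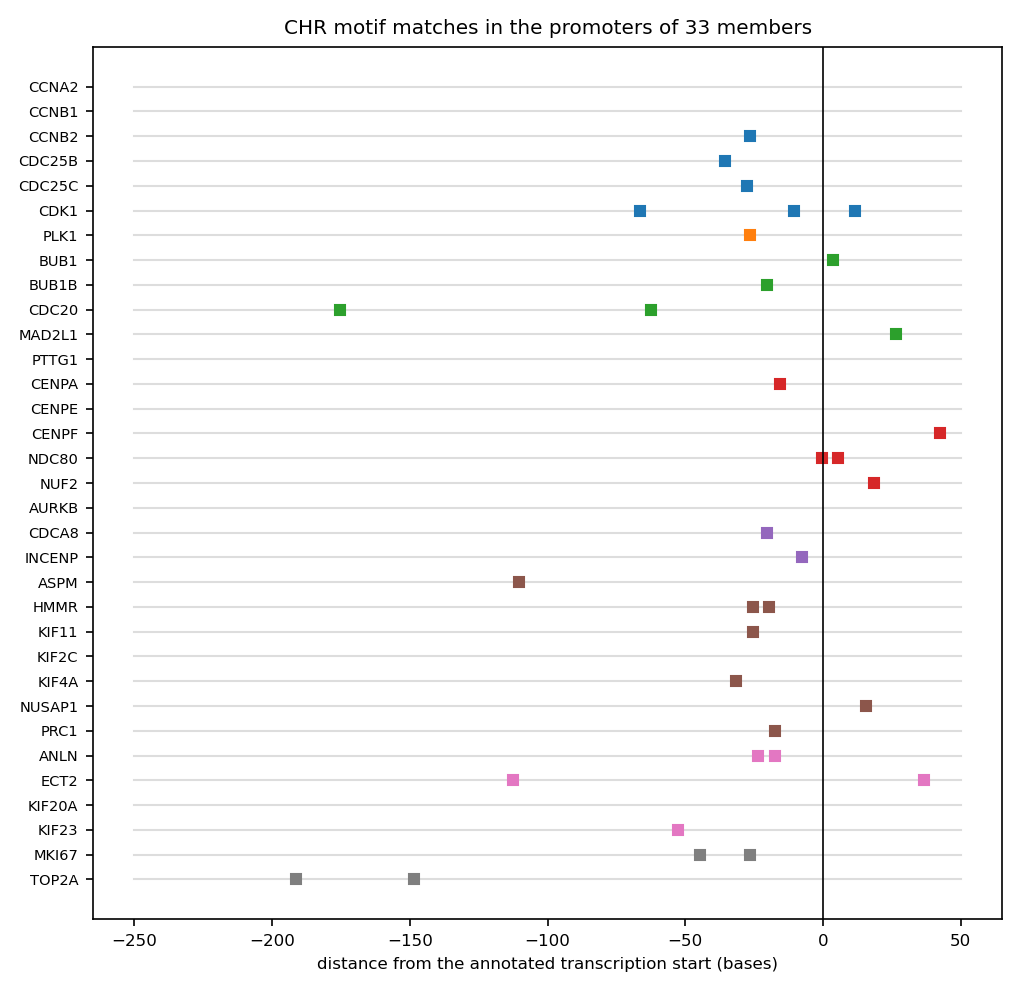
Position of each CHR match (midpoint, bases from the gene start, negative before it) in the promoters of the 33 members with a promoter sequence, one line per gene. The matches gather just before the start, 25 of 35 of them beginning between 60 bases before and 20 bases after it.

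Total counts ranged from 7950190 to 8659796 per library. CBX8 itself had counts of 83 to 104 in the CBX8 KO libraries and 27791 to 31408 in the re-expression libraries, 11.7 ± 0.940 and 3489 ± 156 CPM (counts per 1000000 after scaling of library sizes; mean ± SD, n = 3), a log2 fold change of 8.22. The restored transcript was therefore far above its level in the knockout libraries, and its level in parental cells was not analysed here. Of 7 glioma and astroglial markers, VIM (21563 to 24449 counts) and CD44 (20126 to 24273 counts) were high, GFAP had 13 to 30 and OLIG2 14 to 38 counts per library, NES at most 4, and SOX2 and S100B were at 0. The 14 markers of immune, endothelial, epithelial, neuronal and oligodendrocyte cells summed to 128 to 130 counts in CBX8 KO and 160 to 184 in re-expression libraries, most of them SNAP25, and MOG was at 0. The part of that difference in any result was not tested.

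All 40 members were expressed well enough to be tested, with 177 to 6517 counts per library, and every one lay above the median level of the 14461 genes tested. At a false discovery rate under 0.05 (edgeR's quasi-likelihood test, Benjamini-Hochberg over all tested genes), no member was lower in re-expression, against 6.63% of all tested genes, and 1 member, ANLN, was higher (2.5%), against 6.23%. In either direction the background was 12.9%. Among the 6946 tested genes within the members' range of level, 10.5% were lower and 6.9% were higher. DESeq2 likewise called ANLN alone among the 40. At an unadjusted p under 0.05, 5 members were lower and 2 were higher, against 12.7% of all tested genes in each direction. The median log2 fold change of the 40 was 0.0098, beside 0.0049 for all tested genes, with 18 below 0 and 22 above. The members ranged from -0.16 (MAD2L1) to 0.19 (ANLN). The median size of a difference, whatever its sign, was 0.050 on the log2 scale against 0.13 for all tested genes. For the 6946 genes between the lowest and highest member level it was 0.090. Members sat high in that range, at a median percentile of level of 92.7 among all tested genes. Their median standard error was 0.053, against 0.066 for the 6946 genes and 0.10 for all tested genes. The part of level and standard error in these sizes was not tested.

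These are narrow measurements. The 95% interval of the ratio between groups lay within 1.3-fold either way for all 40 members, within 1.2-fold for 34 and within 1.1-fold for 11. Groups that did not overlap were seen for 10 members (25%), 3 with every re-expression library above (ANLN, HMMR, PTTG1) and 7 with every one below (CDK1, CCNA2, CCNB1, CCNB2, FOXM1, MAD2L1, KIF20A). Over all tested genes the share was 28.9%, with 14.4% in each direction. Among the 6946 genes within the members' range of level it was 34.8%.

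**Figure D2:**
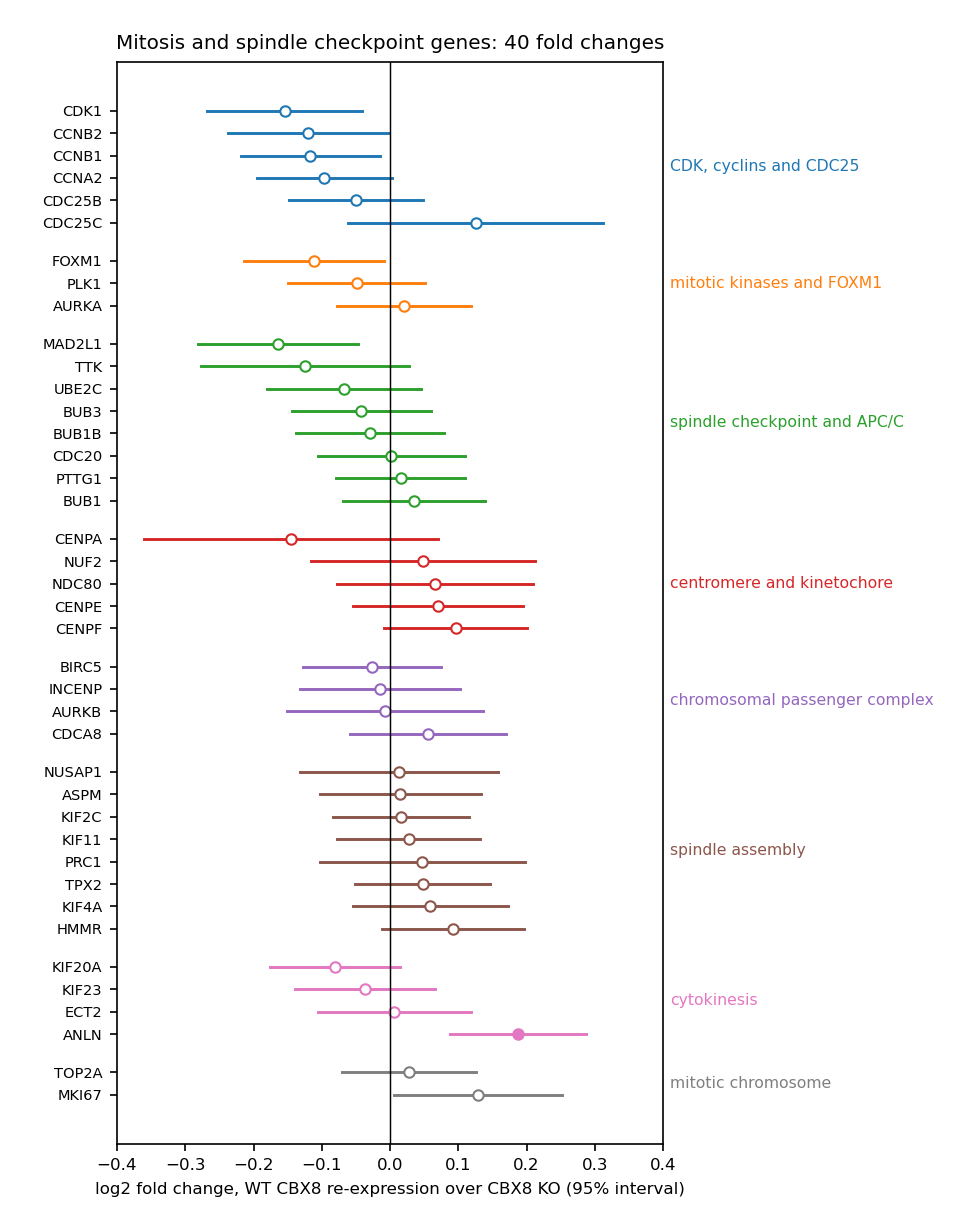
Log2 fold change (re-expression minus CBX8 KO, x axis) with its 95% interval for each of the 40 members, ordered by role, with a filled point where the false discovery rate was under 0.05. ANLN is the filled point, at 0.19, and 33 of the 40 intervals include 0.

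The first group holds the engine of mitotic entry: CDK1, its cyclins CCNA2, CCNB1 and CCNB2, and the phosphatases CDC25B and CDC25C that activate it. None of the 6 passed the test, and 5 of 6 estimates were below 0. CDK1 (chromosome 10 from 60778331 to 60794852, GRCh38, plus strand), the catalytic kinase, measured 182, 181 and 189 CPM in the CBX8 KO libraries and 178, 166 and 151 CPM in the re-expression libraries. Every re-expression library was below every CBX8 KO library, and re-expression replicate 3 was the farthest below. The means were 184 ± 3.94 CPM in CBX8 KO and 165 ± 13.5 CPM in re-expression (SD, n = 3; log2 fold change -0.15, SE 0.055, 95% interval -0.27 to -0.041, adjusted p = 0.067). Without re-expression replicate 3 the estimate was -0.098 (adjusted p = 0.30). Without re-expression replicate 1 it passed, at -0.21 (adjusted p = 0.013), and with no filter on low counts it passed at -0.17 (adjusted p = 0.029).

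The B-type cyclins, the partners that carry CDK1 into mitosis, had nearly equal estimates. With the 95% interval in parentheses, here and for the members that follow, the log2 fold change of CCNB1 was -0.12 (-0.22 to -0.014; adjusted p = 0.14) and CCNB2 -0.12 (-0.24 to -0.0020; adjusted p = 0.19), both with all re-expression libraries below all CBX8 KO libraries and both missing the threshold after adjustment. CCNA2, the cyclin of S phase and early mitosis, was -0.096 (-0.20 to 0.0031; adjusted p = 0.21). CDC25B, which first activates CDK1, was -0.050 (-0.15 to 0.048), and CDC25C, which acts at full mitotic entry, was the one positive estimate at 0.13 (-0.061 to 0.31). Averaged over the 6 genes, log2 CPM relative to each gene's mean was -0.13 in re-expression replicate 3 and 0.0066 to 0.055 in the CBX8 KO libraries, while re-expression replicates 1 and 2, at 0.021 and 0.0037, lay among or next to the latter. That library was the lowest of 6 for 4 of the 6 genes.

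FOXM1, the forkhead transcription factor of late cell cycle genes, lies on chromosome 12 from 2857680 to 2877174 (minus strand). It measured 359, 341 and 371 CPM in the CBX8 KO libraries and 314, 336 and 340.5 CPM in the re-expression libraries, all re-expression libraries below all CBX8 KO libraries. The difference did not pass (log2 fold change -0.11, SE 0.050, 95% interval -0.21 to -0.0081, adjusted p = 0.16). It passed only after a correction for GC content and length, at -0.14 (adjusted p = 0.036). PLK1, the Polo kinase of centrosome maturation and cytokinesis, was -0.049 (-0.15 to 0.052), and AURKA, the Aurora kinase of spindle poles, was 0.021 (-0.077 to 0.12). Both intervals included 0.

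The 8 spindle checkpoint and APC/C genes gave 0 calls. MAD2L1 (chromosome 4 from 120055623 to 120066858, minus strand) encodes the MAD2 protein that binds and holds CDC20, and had the lowest estimate of the 40. It measured 88.5, 98.6 and 96.6 CPM in the CBX8 KO libraries and 85.6, 84.3 and 83.5 CPM in the re-expression libraries. The 3 re-expression libraries were nearly level and below all 3 CBX8 KO libraries, whose first replicate was the closest to them (log2 fold change -0.16, SE 0.057, 95% interval -0.28 to -0.046, adjusted p = 0.059). Without that replicate the estimate was -0.21 and passed (adjusted p = 0.020). TTK, the MPS1 kinase that starts checkpoint signalling, was -0.12 (-0.28 to 0.028; adjusted p = 0.31). BUB1, BUB1B (which encodes BUBR1) and BUB3 encode checkpoint proteins that dock at kinetochores together. Their estimates were 0.035 (-0.069 to 0.14), -0.029 (-0.14 to 0.079) and -0.042 (-0.14 to 0.060).

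On the APC/C side, CDC20, the activator that the checkpoint restrains, had an estimate of 0.0020 (-0.11 to 0.11), the closest to 0 in the group. UBE2C, the APC/C's ubiquitin-conjugating enzyme, was -0.067 (-0.18 to 0.045). PTTG1, the securin whose destruction frees separase, was 0.015 (-0.080 to 0.11) although its groups did not overlap, at 286 ± 1.59 CPM in CBX8 KO and 289 ± 1.03 CPM in re-expression (SD, n = 3). A processed copy of CDC20, CDC20P1, had 126 to 150 counts per library in its own row, so reads of the CDC20 gene may have been divided between them.

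The 5 centromere and kinetochore genes also gave 0 calls, and no member had groups that did not overlap. CENPF (chromosome 1 from 214603185 to 214664574, plus strand), a large protein of the outer kinetochore that accumulates in G2, measured 247, 241 and 242 CPM in the CBX8 KO libraries and 242, 267 and 271 CPM in the re-expression libraries. Re-expression replicates 2 and 3 were above all CBX8 KO libraries and replicate 1 was among them (log2 fold change 0.097, SE 0.051, 95% interval -0.0083 to 0.20, adjusted p = 0.24). The estimate passed only with no scaling beyond library size, at 0.15 (adjusted p = 0.039), a setting that moves the median of all tested genes to 0.060. CENPE, the kinetochore motor, was 0.070 (-0.054 to 0.19), and the microtubule-binding pair NDC80 and NUF2 were 0.066 (-0.078 to 0.21) and 0.048 (-0.12 to 0.21). CENPA, the centromeric histone H3 variant, had the widest interval of the 40, at -0.14 (-0.36 to 0.071), with 177 counts in its lowest library.

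The 4 members of the chromosomal passenger complex gave 0 calls, with estimates from -0.027 to 0.056. The smallest p of the group belonged to CDCA8 (borealin; chromosome 1 from 37692481 to 37709719, plus strand), which measured 103, 103 and 95.1 CPM in the CBX8 KO libraries and 104, 108 and 101 CPM in the re-expression libraries, with overlapping groups (log2 fold change 0.056, SE 0.056, 95% interval -0.058 to 0.17, adjusted p = 0.58). AURKB, the complex's kinase, was -0.0073 (-0.15 to 0.14), INCENP, its scaffold, was -0.015 (-0.13 to 0.10), and BIRC5 (survivin) was -0.027 (-0.13 to 0.074). Subunits of this complex work in fixed proportion, and here their ratios between groups all lay within 1.2-fold.

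All 8 spindle assembly genes had estimates above 0, from 0.013 to 0.092, and none passed. Over all tested genes, 7397 of 14461 estimates were above 0. The shared direction depended on single libraries. With 1 library left out, the lowest estimates were -0.011 for KIF11, -0.014 for KIF2C, -0.0046 for PRC1, -0.036 for NUSAP1 and -0.046 for ASPM. CBX8 KO replicate 2 was the lowest library for 3 of them and CBX8 KO replicate 3 for 5. Log2 CPM relative to each gene's mean averaged 0.017, -0.032 and -0.046 in the CBX8 KO libraries. In the re-expression libraries it averaged -0.00097, 0.032 and 0.029. HMMR (chromosome 5 from 163460203 to 163491941, plus strand), a hyaluronan receptor that also binds spindle microtubules, measured 150.4, 142 and 150.1 CPM in the CBX8 KO libraries and 160.0, 153 and 159 CPM in the re-expression libraries. All re-expression libraries were above all CBX8 KO libraries by a small margin (log2 fold change 0.092, SE 0.050, 95% interval -0.012 to 0.20, adjusted p = 0.26), and the estimate passed only after correction for GC content and length, at 0.15 (adjusted p = 0.019). Among the kinesins, KIF11, which pushes spindle poles apart, was 0.027 (-0.078 to 0.13), KIF2C, a microtubule depolymerase, was 0.016 (-0.083 to 0.12), and the chromokinesin KIF4A was 0.059 (-0.054 to 0.17). TPX2, which activates AURKA on the spindle, was 0.048 (-0.051 to 0.15), and ASPM, a spindle pole protein, was 0.015 (-0.10 to 0.13). NUSAP1, which bundles microtubules, was 0.013 (-0.13 to 0.16). PRC1, here the protein regulator of cytokinesis and not the Polycomb complex, was 0.047 (-0.10 to 0.20).

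Members whose exons overlap those of other genes are uncertain, among them NUSAP1, PRC1, CENPA and CDC25C. The antisense gene PRC1-AS1 had 871 to 1107 counts per library against 399 to 491 for PRC1. OIP5-AS1 (671 to 889 counts) overlaps NUSAP1 on its strand. SLC35F6 (504 to 598 counts) overlaps CENPA (177 to 248 counts) on its strand. FAM53C (838 to 948 counts) overlaps CDC25C (264 to 345 counts) on the other strand. CCNA2, FOXM1, KIF4A, KIF20A and HMMR, among others, also overlap counted genes on the other strand. How the counting treated strand and shared exons is not given in the sources used here, so the reads of such pairs cannot be told apart.

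Cytokinesis held the one call. ANLN (chromosome 7 from 36389821 to 36453791, plus strand) encodes anillin, which links actin, septins and the cell membrane at the cleavage furrow. It had counts of 4319, 4400 and 4046 in CBX8 KO and 4960, 5505 and 4990 in re-expression, or 545, 523 and 518 CPM in the CBX8 KO libraries and 583, 629 and 594 CPM in the re-expression libraries. Every re-expression library was above every CBX8 KO library, and re-expression replicate 2 was the highest. ANLN rose from 529 ± 14.5 to 602 ± 24.0 CPM (SD, n = 3), 1.14-fold (log2 fold change 0.19, SE 0.049, 95% interval 0.088 to 0.29, adjusted p = 0.0096). The call was lost without CBX8 KO replicate 2 (0.18, adjusted p = 0.062) and without re-expression replicate 2 (0.16, adjusted p = 0.087). Its adjusted p spanned 0.0005 to 0.087 across the alternatives. An exon of the gene MATCAP2, listed as KIAA0895, overlaps ANLN on the other strand and had 184 to 285 counts per library.

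The other 3 cytokinesis members did not pass. KIF20A, a kinesin of the central spindle, was -0.081 (-0.18 to 0.015; adjusted p = 0.29) with all re-expression libraries below. KIF23, the motor of centralspindlin, was -0.036 (-0.14 to 0.066), and ECT2, the RhoA exchange factor it recruits, was 0.0065 (-0.11 to 0.12).

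Of the mitotic chromosome genes, MKI67 (chromosome 10 from 128096659 to 128126423, minus strand), the Ki-67 antigen that coats mitotic chromosomes, measured 499, 443 and 459.7 CPM in the CBX8 KO libraries and 453, 538 and 541 CPM in the re-expression libraries. Re-expression replicates 2 and 3 were the highest, while replicate 1 was below CBX8 KO replicates 1 and 3 (log2 fold change 0.13, SE 0.060, 95% interval 0.0052 to 0.25, adjusted p = 0.18). Without re-expression replicate 1 it passed, at 0.20 (adjusted p = 0.013), and with no scaling beyond library size at 0.18 (adjusted p = 0.030). With correction for GC content and length it was 0.024 (adjusted p = 0.79), and without re-expression replicate 3 it was 0.083 (adjusted p = 0.48). TOP2A, the topoisomerase that untangles sister chromatids, was 0.027 (-0.071 to 0.13). For the 5 other members that passed under some alternative but not in the test reported, the estimates across all alternatives spanned -0.21 to -0.081 for CDK1, -0.14 to -0.056 for FOXM1, -0.21 to -0.11 for MAD2L1, 0.050 to 0.15 for CENPF and 0.064 to 0.15 for HMMR, with adjusted p up to 0.30, 0.51, 0.26, 0.55 and 0.60.

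**Figure D3:**
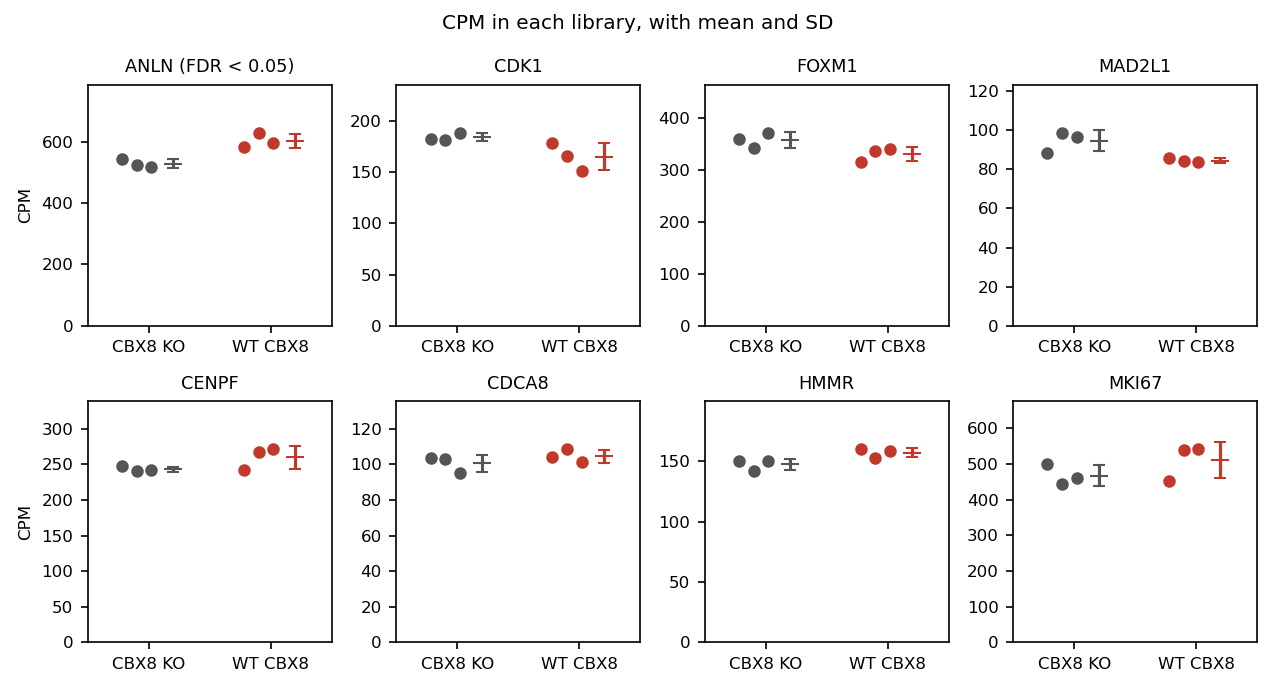
CPM of ANLN and of the member with the smallest p in each of the other role groups (CDK1, FOXM1, MAD2L1, CENPF, CDCA8, HMMR, MKI67), one point per library with the group mean ± SD, on axes that start at 0. The groups stand apart for ANLN, CDK1, FOXM1, MAD2L1 and HMMR and overlap for CENPF, CDCA8 and MKI67.

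Library by library, the 40 genes took 0.847 to 0.848% of raw counts in CBX8 KO and 0.876 to 0.890% in re-expression, which do not overlap. The TMM scaling factors also differed between groups, at 0.971 to 0.987 in CBX8 KO and 1.01 to 1.03 in re-expression. After that scaling the 40 genes summed to 8618 to 8751 CPM in CBX8 KO and 8640 to 8797 CPM in re-expression, which overlap. Averaged over the 40, log2 CPM relative to each gene's mean stayed between -0.022 and 0.014 in the 6 libraries, the extremes being re-expression replicate 3 and CBX8 KO replicate 1. CBX8 KO replicate 3 was the lowest library for 13 members and re-expression replicate 3 for 14.

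**Figure D4:**
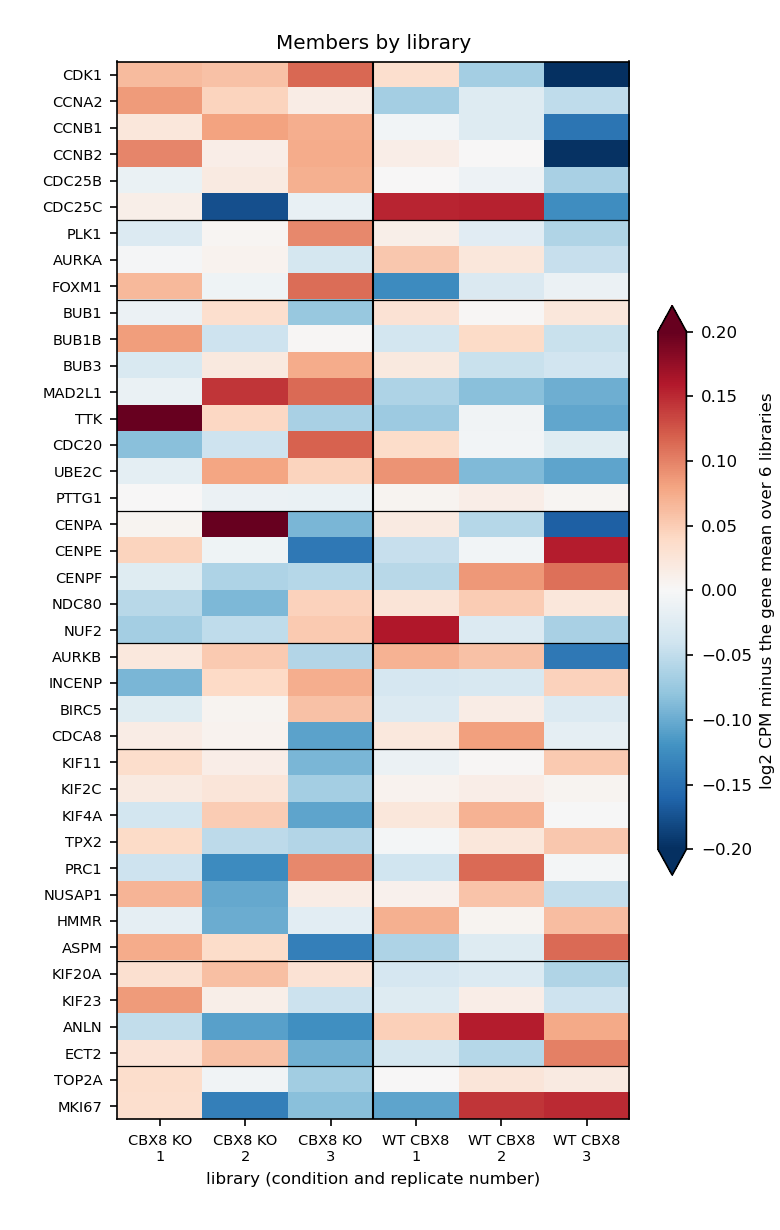
Log2 CPM of each of the 40 members minus its mean over the 6 libraries, by library, with colours clipped at 0.2 either way. No block of colour separates the groups across all members, and the low CCNB1, CCNB2 and CDK1 values of re-expression replicate 3 stand out. ANLN is low in all 3 CBX8 KO libraries and high in all 3 re-expression libraries.

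Levels differed far more between members than between groups. Per kilobase of the GENCODE canonical transcript, PTTG1 was highest in CBX8 KO at 399.6 ± 2.22 CPM per kb (SD, n = 3), followed by CDC20 (278 ± 20.9), UBE2C (244 ± 8.38) and TPX2 (178 ± 6.81). PLK1 (157 ± 7.07), CCNB1 (152 ± 3.28) and AURKA (150.3 ± 2.30) came next, and neighbours among these 3 differed by less than the sum of their SDs. ANLN ranked 10 at 112 ± 3.07 and within that spread of CDC25B (115 ± 3.41). CENPE (13.7 ± 0.904), CDC25C (16.3 ± 1.12) and PRC1 (16.6 ± 1.3) were lowest, and from KIF4A down to CDC25C each member was within that spread of the next. The transcripts actually made in T98G may differ in length from the canonical ones. Across the 40 members, Spearman's rho between log2 fold change and level was 0.030, a description over genes that share libraries.

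Fold changes of members with and without a CHR match covered overlapping ranges. The median on the log2 scale was 0.021 for the 26 with a match and -0.0073 for the 7 without one, with ranges of -0.16 to 0.19 and -0.12 to 0.070. The -0.0073 is the estimate of AURKB, whose promoter start lies 326 bases from its GENCODE canonical start. This comparison of members is a description with no test.

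The wider mitotic program was read from 6 further lists holding 121 genes, of which 119 could be tested. Of these, 4 fell and 2 rose (3.36% and 1.68%), both shares below those of all tested genes (6.63% and 6.23%), with a median log2 fold change of -0.0060. The 15 other kinases and phosphatase regulators and the 17 condensin and cohesin genes gave 0 calls, with 1 lower and 1 higher in each at an unadjusted p under 0.05. Among 34 other kinetochore genes, HJURP, the chaperone that deposits CENPA, fell (log2 fold change -0.17, SE 0.049, 95% interval -0.27 to -0.072, adjusted p = 0.017), and SPDL1, which brings dynein to kinetochores, rose (log2 fold change 0.16, SE 0.052, 95% interval 0.055 to 0.27, adjusted p = 0.038).

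Among 19 other spindle and cytokinesis genes PIMREG, a mitotic regulator, rose from 52.8 ± 3.5 to 63.2 ± 5.54 CPM (log2 fold change 0.26, SE 0.072, 95% interval 0.11 to 0.41, adjusted p = 0.016). Among 18 APC/C genes the scaffold subunit ANAPC1 fell (log2 fold change -0.23, SE 0.061, 95% interval -0.36 to -0.11, adjusted p = 0.0094). Among 16 regulators of the DREAM and MYBL2-MuvB complexes, the repressor E2Fs of DREAM fell, E2F4 by 0.17 and E2F5 by 0.29 on the log2 scale (adjusted p = 0.028 and 0.026). SKA1, listed at 0, and KIFC1 could not be tested. The 6 calls were sensitive to the processing, and each was lost without at least 1 library. DESeq2 called 2 lower and 0 higher, and leaving out 1 library gave 1 to 4 lower and 1 to 2 higher, with 1 lower without re-expression replicate 2, 2 lower without each CBX8 KO library in turn, and 1 higher without CBX8 KO replicate 2 or any one re-expression library.

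Genes of the preceding phase gave other counts. Most of the 33 S-phase genes act in DNA replication, nucleotide supply or entry into S phase. Of the 33, 8 fell (24.2%), against 6.63% of all tested genes and 10.5% of the 6946 genes in the members' range of level. None rose, against 6.23%, with 0 higher also at an unadjusted p under 0.05 and with DESeq2. Their median log2 fold change was -0.069. The 8 were the helicase subunits MCM3, MCM4 and MCM7, the clamp PCNA, the loading factors CDC6 and ORC1, GINS3 and the clamp loader subunit RFC3. RFC3 measured 82.2, 80.8 and 91.5 CPM in the CBX8 KO libraries and 69.5, 68.9 and 64.4 CPM in the re-expression libraries (log2 fold change -0.33, SE 0.062, 95% interval -0.45 to -0.20, adjusted p = 6.0e-04). ORC1 measured 67.1, 77.9 and 79.5 CPM in the CBX8 KO libraries and 60.8, 61.5 and 60.2 CPM in the re-expression libraries (log2 fold change -0.30, SE 0.066, 95% interval -0.44 to -0.16, adjusted p = 0.0026), and MCM4 had a log2 fold change of -0.20 (-0.30 to -0.10; adjusted p = 0.005). In all 3 genes every re-expression library was below every CBX8 KO library. DESeq2 called 5. Leaving out any 1 library gave 5 to 6, with 5 without CBX8 KO replicate 3 or without re-expression replicate 3. Whether the S-phase and mitotic lists differ from each other was not tested. A CHR match was present in 2 of their 28 promoters (7.14%), and in 52 of 104 promoters of the 6 mitotic lists.

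**Figure D5:**
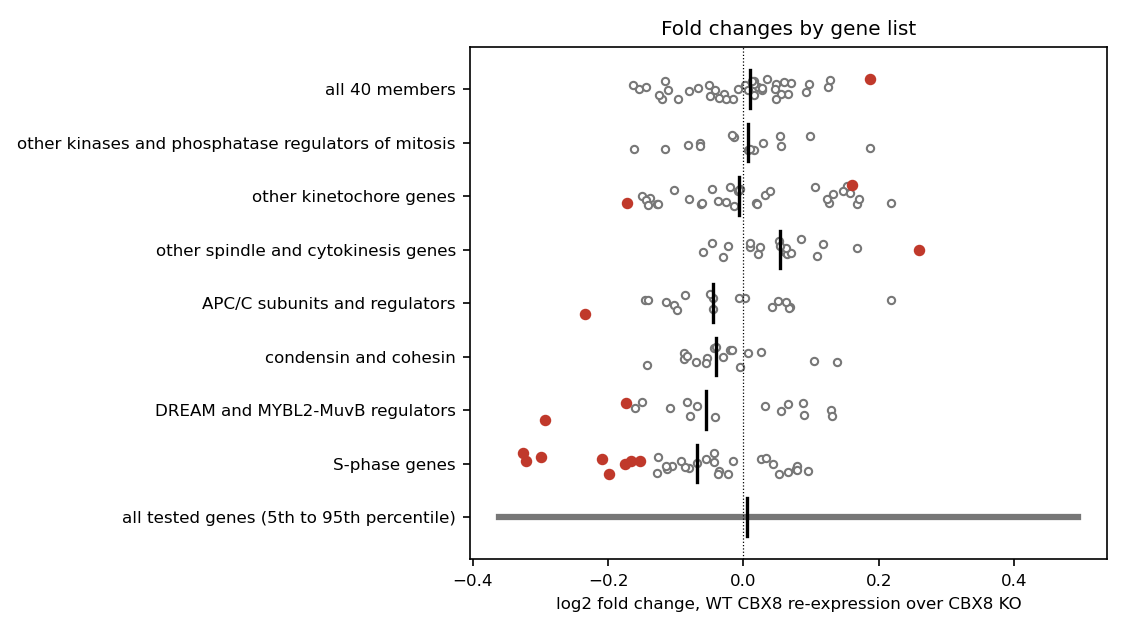
Log2 fold change (re-expression minus CBX8 KO) of each tested gene in the 40 members, the 6 other mitotic lists and the S-phase list, red where the false discovery rate was under 0.05 and with a bar at each median, beside the 5th to 95th percentiles of all tested genes (-0.361 to 0.495). ANLN is the one red point among the members, and 8 S-phase genes are red, all below 0.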

How the data were processed

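Poly(A) RNA of 6 T98G libraries was sequenced as 100-base paired-end reads. The authors deposited gene counts, one column per library, and the processing notes name Trimmomatic, HISAT2 and build hg38. Which program counted the reads, on which gene models and with or without strand, is not given in the sources used here. Every column was used. Of 57133 symbols, 29123 had no count in any library.

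Genes passing filterByExpr (14461) were fitted with condition alone in edgeR 4.0.16 (R 4.3.3; TMM scaling, quasi-likelihood test, Benjamini-Hochberg), and called at a false discovery rate under 0.05. CPM use TMM-adjusted library sizes. Intervals are 95%, from the quasi-likelihood standard error and its t quantile. With 3 libraries against 3, an exact two-sided permutation test cannot go below p = 0.1. The code was tested on simulated counts. Positions are from GENCODE 44 and promoters from RefSeq (GRCh38.p14).

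Values are given for all members, and per-library values for called members and for the smallest p in each role group without a call. Of other lists, up to 3 called genes in each direction are named with values, and the remaining S-phase calls were named after their values were seen. The members and all lists were chosen with earlier results of these data known. Alternatives were RLE, upper quartile or library size scaling, DESeq2 1.42.0, limma 3.58.1 (voom), edgeR's exact test, other filters and thresholds, gene copies added to their parents, a replicate block, and each library left out. A GC and length correction, covering 85.7% of tested genes, was added after seeing the data. Libraries of a group differed by more than sampling noise (chi-square per degree of freedom 1.96 to 2.90), so no column is a copy of another. Whether they came from separate cultures cannot be told from this. A further result among the genes that hold the cell cycle in G1 is not reported here.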

Additional observations from a re-analysis of the deposited data

How the results depend on the processing

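Over 680 refits of single members, 631 kept direction and side of the threshold, 2 lost a call (ANLN), 8 gained one and 39 changed sign, in 18 members whose estimates lie near 0 and none of which was called. The cause was not tested. The count of members lower, 0, became 1 with no filter (CDK1) and 1 with GC and length correction (FOXM1), and 0 to 1 with 1 library left out. The count higher, 1, became 3 with library size only and 2 with the GC and length correction, and 0 to 2 with 1 library left out. The members' median log2 fold change became 0.065 with library size only, a scaling that moves the median of all tested genes to 0.060, and was -0.0081 to 0.018 with 1 library left out. Of the other mitotic genes, the 4 lower became 1 with library size only, 2 with DESeq2, 2 with the replicate block, 1 at a false discovery rate under 0.01 and 1 to 4 with 1 library left out. The 2 higher became 4 with upper quartile scaling, 9 with library size only, 0 with DESeq2, 1 with no filter, 1 with the replicate block, 7 with the GC and length correction, 0 at a false discovery rate under 0.01 and 1 to 2 with 1 library left out. The 8 lower S-phase genes became 5 with library size only, 5 with DESeq2, 5 with the replicate block, 4 at a false discovery rate under 0.01 and 5 to 6 with 1 library left out.

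Signs changed with library size only for CDC25B (0.0052), PLK1 (0.0066), BUB1B (0.027), BUB3 (0.013), AURKB (0.048), INCENP (0.040), BIRC5 (0.029) and KIF23 (0.019), with upper quartile scaling for AURKB (0.0052), and with the GC and length correction for BUB1B (0.0045), CDC20 (-0.013), ASPM (-0.027) and KIF23 (0.0023). CDC20 was -0.00133 with RLE scaling, -0.00665 with DESeq2, -0.011 with no filter and -0.00208 with copies added, and ECT2 was -0.00193 with DESeq2 and -0.00658 with no filter. With 1 library left out, estimates ran from -0.0030 to 0.046 for AURKA, -0.058 to 0.0043 for BUB1B, -0.040 to 0.063 for CDC20, -0.026 to 0.088 for NUF2, -0.046 to 0.055 for AURKB, -0.064 to 0.016 for INCENP, -0.011 to 0.050 for KIF11, -0.014 to 0.031 for KIF2C, -0.0046 to 0.11 for PRC1, -0.036 to 0.049 for NUSAP1, -0.046 to 0.054 for ASPM, -0.047 to 0.037 for ECT2 and -0.00084 to 0.050 for TOP2A.

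Same-numbered libraries did not deviate together from their group means, with correlations of -0.109, -0.0576 and -0.0578 over 13490 genes. Whether they were handled in pairs is not stated and cannot be told from this. With the replicate block the members still gave 0 lower and 1 higher, ANLN. At this depth, with 177 or more counts per library, the members' intervals leave differences of up to 1.3-fold possible, and for 34 of the 40 up to 1.2-fold.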

Other observations

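Genes that hold the cell cycle in G1 or after damage were not part of the mitotic lists. Of 11 tested, 2 rose (18.2%), against 6.23% of all tested genes. CDKN1A, the p21 inhibitor of cyclin-dependent kinases, measured 15.1, 13.4 and 16.3 CPM in the CBX8 KO libraries and 28.1, 28.1 and 27.6 CPM in the re-expression libraries and rose 1.87-fold (log2 fold change 0.90, SE 0.10, 95% interval 0.70 to 1.11, adjusted p = 3.6e-07), with every re-expression library above every CBX8 KO library. GADD45A, a stress-induced gene that can restrain CDK1, rose from 17.2 ± 1.49 to 22.0 ± 0.856 CPM (SD, n = 3; log2 fold change 0.35, SE 0.10, 95% interval 0.14 to 0.56, adjusted p = 0.023). The GADD45A call was lost with DESeq2 (0.34, adjusted p = 0.17), without CBX8 KO replicate 3 (0.285, adjusted p = 0.11) and without re-expression replicate 2 (0.32, adjusted p = 0.11). The CDKN1A call was kept under each alternative, from 0.83 to 0.97. CDKN1C, CDKN2C and SFN had too few counts to be tested. In the same libraries the median of the 40 mitotic members differed by 0.0098 on the log2 scale.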
